A study of Mus musculus with 33 samples.

Results

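Placental hormone and trophoblast transcription factor genes were followed across differentiation of mouse embryonic stem cells lacking DNA repair enzymes. The group held 9 of the 37991 gene identifiers counted: the prolactin family hormones Prl7d1, Prl3d1 and Prl2c2, and the factors Hand1, Ascl2, Gcm1, Cdx2, Elf5 and Tcfap2c, which newer annotation calls Tfap2c. They were chosen by name, and with a measured value in view, since Prl7d1 had been singled out for its low level in the Apex1 line treated with retinoic acid (RA). All values in that comparison, and those of Prl7d1 in any comparison that reuses its Control libraries, are therefore given as a description with no test.

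The 33 libraries came from E14TG2a cells, a male mouse embryonic stem cell (mESC) line, edited with CRISPR/Cas9. Each genotype was sampled as mESCs, as embryoid bodies (EBs) at day 8, and as EBs at day 8 that had received 5 µM RA from day 4 (EBs + RA). Control cells carried the empty pX330 vector and went through the same puromycin selection as the mutants. Control (clones #1, #4 and #7), Neil1 (#7, #9 and #11) and Neil2 (#1, #11 and #14) were each 3 independent clones per stage, whereas Apex1 was 1 clone, #46, sequenced as technical duplicates. p-values against Apex1 thus cover no spread between Apex1 clones. Libraries held 21523742 to 48350904 counts on genes. Bulk RNA cannot tell fewer cells of a type from less RNA per cell.

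Trophoblast is the lineage of the placenta and the first to separate from the embryo proper. Cdx2, Elf5 and Tcfap2c act in trophectoderm and trophoblast stem cells, Ascl2 in the spongiotrophoblast, Gcm1 in the syncytiotrophoblast of the labyrinth, and Hand1 in the formation of giant cells. Giant cells and spongiotrophoblast in turn secrete hormones of the prolactin family, an expanded cluster of genes on mouse chromosome 13. Several of these factors also work outside the placenta: Hand1 in lateral and extraembryonic mesoderm, Cdx2 in the primitive streak, tail bud and hindgut, Ascl2 and Tcfap2c in other stem and germ cells. Embryonic stem cells are usually thought to give little trophoblast.

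The libraries labelled Apex1 held higher and not lower counts of the targeted gene. Apex1 mRNA averaged 11.2 CPM, counts scaled to library size, in Control mESCs and 75.1 in the libraries labelled Apex1, 14.4 and 73.1 in EBs, and 13.6 and 60.4 in EBs + RA. A count over the whole gene does not measure the loss of the targeted exon, and the same holds for Neil1 and Neil2. The authors checked the Apex1 line by genotyping PCR and by a western blot for the protein. The Neil1 clone #11 mESC library held counts for 287 X-linked genes, against 807 to 926 in the other libraries, and the 9 genes studied here are autosomal. The Neil1 clone #11 EBs + RA library also stood apart: its summed parietal endoderm genes reached 19322 CPM, against 4286 and 5953 in the other Neil1 clones, so the differences of the 9 genes in Neil1 EBs + RA are also given without it.

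In the comparison that chose it, Prl7d1, which encodes proliferin-related protein, a placental hormone that restrains blood vessel growth, was close to absent from the Apex1 line. Control EBs + RA held 6.47, 9.39 and 3.54 CPM in clones #1, #4 and #7, and the libraries labelled Apex1 held 0.0428 and 0.0691 CPM, from 1 and 2 reads. The fitted difference was -6.68 on the log2 scale (SE 0.679), and summed counts of 552 against 3 gave a ratio of 111 between Control and Apex1 (95% exact interval 37.7 to 538, which covers counting error only). Prl7d1 had the 6th lowest log2 fold change of 16239 genes tested, next to Prl3b1 at -7.05 above it and Crp at -5.76 below it; the 5 genes ahead of it had no reads at all in the libraries labelled Apex1 and 51 to 84 in Control. This place in the order restates the choice of Prl7d1 and is no finding.

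Prl7d1 (ENSMUSG00000021348) lies on the minus strand of chromosome 13 at 27800885 to 27808606 of NCBIM37, the build of the counts. The 250 bases upstream of its start are shown because they are nearly shared with Prl2c5 and Prl2c3, 2 of the 5 genes whose RNA was most like that of Prl7d1 by Pearson correlation. The sequences come from RefSeq on another build, GRCm38.p6, and 6 of the 9 genes had an entry there. Capitals mark matches, on either strand, to the TATA-like word TATATA, the GATA word GATAA, the AP-1 word TGANTCA or the E-box word CANNTG, and each line runs 5′ to 3′ on the strand of the gene.
Prl7d1 (chr13:27716737-27716986, minus strand): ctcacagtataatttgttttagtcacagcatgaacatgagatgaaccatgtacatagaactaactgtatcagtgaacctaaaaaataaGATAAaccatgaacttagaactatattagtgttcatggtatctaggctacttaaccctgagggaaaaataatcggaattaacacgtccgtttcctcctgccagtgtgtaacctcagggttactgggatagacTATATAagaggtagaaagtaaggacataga
Prl2c5 (chr13:13182466-13182715, plus strand): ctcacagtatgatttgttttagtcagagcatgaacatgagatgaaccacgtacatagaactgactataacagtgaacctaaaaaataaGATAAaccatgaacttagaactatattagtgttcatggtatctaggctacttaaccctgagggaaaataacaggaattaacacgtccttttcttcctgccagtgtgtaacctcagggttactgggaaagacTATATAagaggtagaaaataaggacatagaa
Prl2c3 (chr13:12800080-12800329, minus strand): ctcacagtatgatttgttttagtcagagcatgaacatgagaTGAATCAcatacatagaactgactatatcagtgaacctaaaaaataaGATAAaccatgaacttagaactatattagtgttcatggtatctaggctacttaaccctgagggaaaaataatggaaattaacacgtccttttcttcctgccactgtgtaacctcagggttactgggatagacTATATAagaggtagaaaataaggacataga
Prl3d1 (chr13:27093939-27094188, plus strand): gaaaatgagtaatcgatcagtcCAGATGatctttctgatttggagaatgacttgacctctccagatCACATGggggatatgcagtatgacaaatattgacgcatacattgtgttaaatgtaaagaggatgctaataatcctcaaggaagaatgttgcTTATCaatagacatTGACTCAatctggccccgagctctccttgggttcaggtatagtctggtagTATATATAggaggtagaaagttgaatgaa
The upstream region of Prl7d1 was 94.8% identical to that of Prl2c3 and 94.4% to that of Prl2c5, whereas its identity with 19 other family members ran from 50.2% to 56.6%. Prl3d1 showed the same with its own neighbours, 85.4% with Prl3d2 and 83.0% with Prl3d3, against 50.7% to 58.8% for the other 19. Counted from the start of the gene, TATATA began at position -30 in Prl7d1 and Prl2c3 and at -31 in Prl2c5, and GATAA began at -162 in all 3, while TGANTCA was present in Prl2c3 and Prl3d1. Of 32851 promoters of the same length, 5.25% held the TATA-like word, 22.6% the GATA word, 6.75% the AP-1 word and 66.2% the E-box word. A match is a run of letters, not a binding site.

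Prl7d1 was close to absent in mESCs and present in every Control EB clone. In mESCs no library exceeded 0.0757 CPM, and in EBs the Control clones #1, #4 and #7 held 1.24, 5.25 and 1.33 CPM. The rise from Control mESCs to Control EBs was 5.92 on the log2 scale (SE 0.930), with an adjusted p of 0.00114 (edgeR, quasi-likelihood, adjusted by Benjamini and Hochberg). Control mESCs gave 1, 2 and 0 reads. Prl7d1 thus passed the filter on low counts through the EBs, and nothing is drawn from that test. Clone #4 was the highest of the Control clones at both EB stages. With RA the 3 Control clones reached the values given above, 1.33 log2 units over EBs, and the Control clones of the 2 stages overlapped.

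Prl7d1 was also compared without RA. These libraries played no part in its choice, but they came from the same Apex1 clone and the same Control clones. The libraries labelled Apex1 held 0.0811 and 0.0381 CPM in EBs, from 2 and 1 reads, both below every Control clone. The log2 fold change was -5.34 (SE 1.21, adjusted p = 0.0194), and summed counts of 230 against 3 gave a ratio of 38.9 (95% exact interval 13.1 to 190). The gene passed the filter on low counts through the Control clones and the level in Apex1 rests on 3 reads. It could hardly have moved otherwise, so nothing is drawn from the call. With either Apex1 library left out the call was lost, with an adjusted p of up to 0.131, while leaving out any 1 Control clone kept it.

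The Neil1 and Neil2 clones kept Prl7d1 in both EB stages. Neil1 EBs (clones #7, #9 and #11) held 4.2, 1.02 and 13.9 CPM and Neil2 EBs (#1, #11 and #14) held 0.191, 1.42 and 2.48 CPM, and both groups overlapped Control. The differences from Control were 1.34 (adjusted p = 0.417) and -0.93 (adjusted p = 0.515) on the log2 scale, and without Neil1 clone #11 the first became 0.01. In EBs + RA the Neil1 clones held 5.98, 2.5 and 54.3 CPM and the Neil2 clones 2.25, 12.2 and 8.2 CPM, with log2 differences of 1.7 and 0.24 from Control. Without Neil1 clone #11 the first turned to -0.60, with a Neil1 mean of 4.24 CPM against 6.47 CPM in Control. Clones of 1 genotype thus differed widely, and Neil1 clone #11 in EBs + RA was the highest library of the series.

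**Figure D1:**
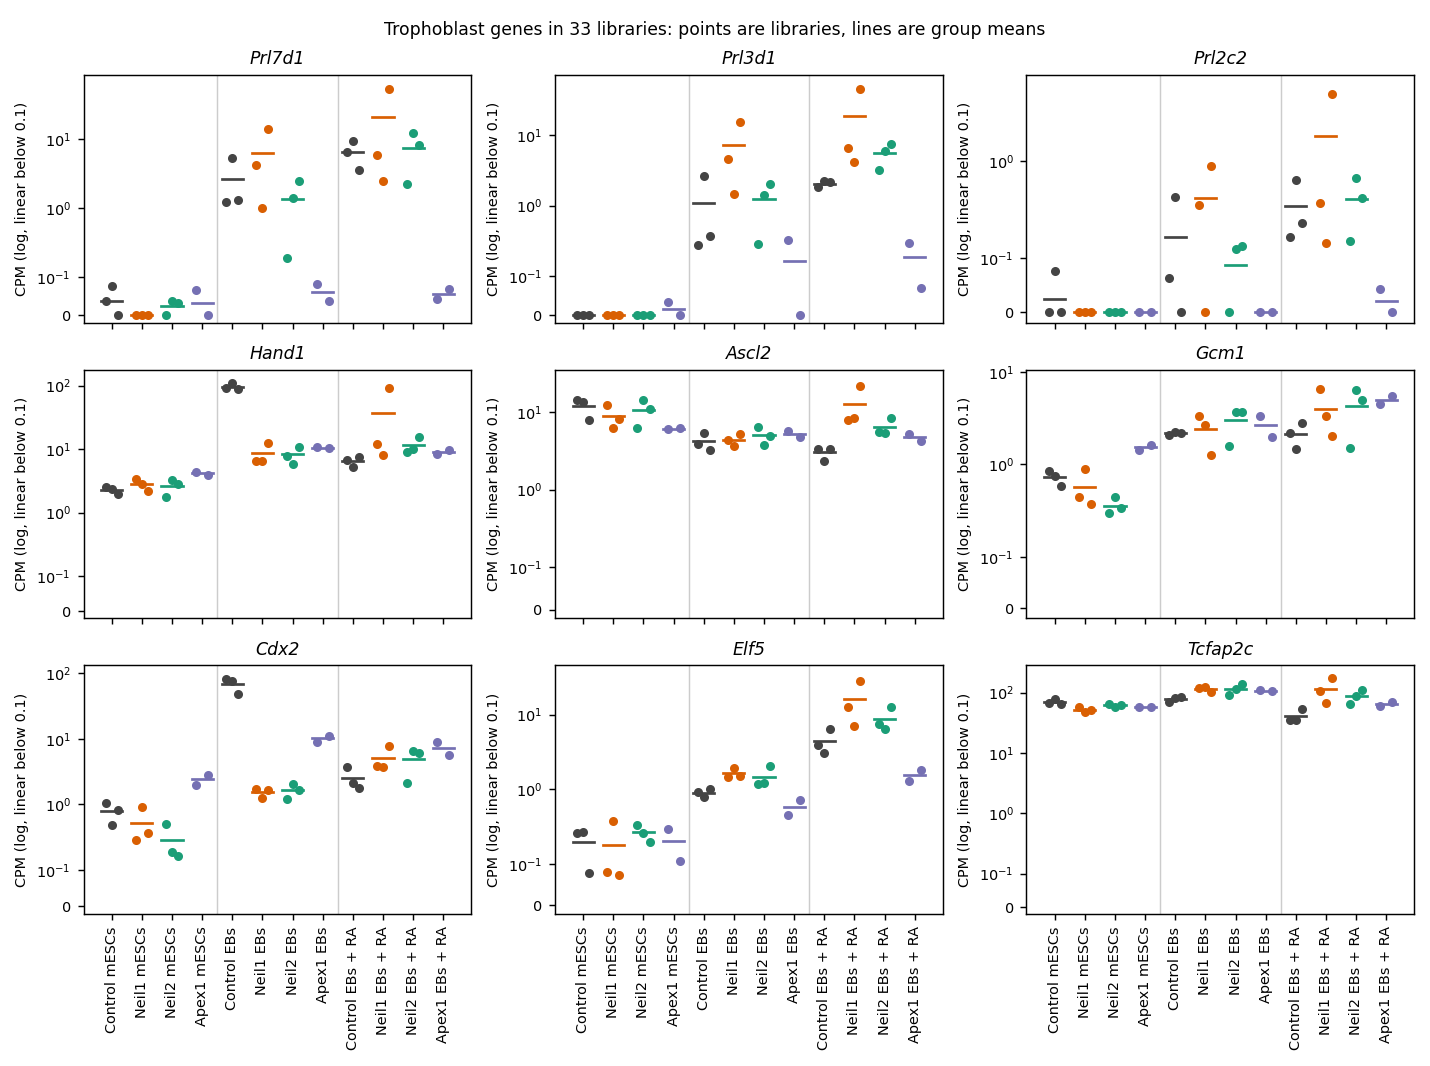
CPM of each of the 9 genes (vertical axis, logarithmic, linear below 0.1 CPM) in the 33 libraries, grouped by stage and genotype on the horizontal axis; points are libraries and lines are group means. The hormone genes of the libraries labelled Apex1 sit at or near 0, and Hand1 and Cdx2 are high in Control EBs, at 89.8 to 110 and 48.9 to 82.6 CPM.

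Prl3d1 (ENSMUSG00000057170, chromosome 13, 27186081 to 27192124, plus strand) encodes placental lactogen I, an early hormone of giant cells. Control EBs held 0.273, 2.65 and 0.368 CPM, Neil1 EBs 4.6, 1.46 and 15.6 CPM, Neil2 EBs 0.287, 1.42 and 2.03 CPM, and the libraries labelled Apex1 0.324 and 0 CPM. None of the 3 differences from Control in EBs passed the limits by edgeR, with a log2 fold change of 2.82 (adjusted p = 0.168) for Neil1 and -2.69 (adjusted p = 0.308) for Apex1. The Neil1 difference passed in 1 edgeR fit of all 33 libraries (adjusted p = 0.0969), without Control clone #4 and without Neil1 clone #9, and was 1.54 without clone #11. In EBs + RA Control held 1.82, 2.22 and 2.15 CPM and Apex1 0.3 and 0.0691 CPM. Neil1 held 6.6, 4.18 and 45.8 CPM and Neil2 3.23, 5.93 and 7.5 CPM. Every Neil1 and Neil2 clone was above every Control clone, and both libraries labelled Apex1 were below. The change of the difference from Control between EBs and EBs + RA passed in neither Neil1 nor Neil2 by edgeR. It was 0.415 (adjusted p = 0.867) in Neil1 and 1.196 (adjusted p = 0.525) in Neil2. Without clone #11 in EBs + RA the Neil1 change was -1.399 (adjusted p = 0.519). A stronger Prl3d1 difference with RA was thus not shown.

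Prl3d1 rose in EBs + RA by 3.19 (SE 0.868, adjusted p = 0.0244) in Neil1 and by 1.44 (SE 0.331, adjusted p = 0.0126) in Neil2 on the log2 scale. Without Neil1 clone #11 the Neil1 rise was 1.39 with an adjusted p of 0.00786. The Neil1 call was lost without a filter on low counts and without Control clone #1, and the Neil2 call was lost when all 33 libraries shared 1 fit. For Apex1 the difference was -3.49, and summed counts gave a ratio of 12.0 between Control and Apex1 (95% exact interval 6.16 to 26.6). In Control itself, RA moved Prl3d1 by 0.97 (adjusted p = 0.311), or by 1.43 (adjusted p = 0.0847) with the clone as a block, as the same clones were used at both stages.

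Prl2c2 (ENSMUSG00000079092, chromosome 13, 13088393 to 13097659, minus strand), a proliferin, which promotes blood vessel growth, was the least counted hormone. Control EBs gave 3, 11 and 0 reads and Control EBs + RA 5, 17 and 7 reads. The libraries labelled Apex1 gave 0 and 0 reads in EBs, at least 2.37-fold lower than Control against a floor of 3 reads over the group, and 1 and 0 reads in EBs + RA, a ratio of 17.4 (95% exact interval 2.89 to 712). In Neil1 EBs + RA it gave 12, 4 and 121 reads, the last in clone #11, and the log2 fold change of 2.37 (adjusted p = 0.156) turned to -0.36 without that clone. DESeq2 called that rise with all clones (adjusted p = 0.0538), as did 1 edgeR fit of all 33 libraries (adjusted p = 0.0993). In Neil2 EBs + RA it gave 4, 21 and 12 reads, with a log2 fold change of 0.31 (adjusted p = 0.742).

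Some hormone genes share sequence with their neighbours. Of all stretches of 51 bases, the number of sequencing cycles, in the transcript of Prl2c2, 83.4% also occurred in another gene, and the share was 78.8% for Prl2c3 and 56.1% for Prl3d1. Alignments of reads with more than 1 place were 11.4% to 19.9% of all alignments tallied in each library and were not counted on genes. Prl7d1 shared no such stretch, nor did Hand1, Cdx2, Ascl2, Elf5 or Tcfap2c, and Gcm1 shared 2.47%.

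The prolactin family has 26 genes in the annotation, and its sum shows whether the 3 hormones stood alone. The summed level was at most 0.719 CPM in mESCs of every genotype. In EBs it was 6.66 to 33.7 CPM in Control and 0.152 to 1.54 CPM in Apex1, where 15 of the 26 genes had no read against 5 in Control. In EBs + RA it was 22.6 to 51.4 CPM in Control, 30.9 to 380 CPM in Neil1, 18 to 55 CPM in Neil2 and 1.58 to 2.28 CPM in Apex1.

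Of the 26 family genes, 7 had enough reads to test in Apex1 EBs. Prl4a1 fell by 6.16 (adjusted p = 0.0751) and Prl2a1 fell by 5.99 (adjusted p = 0.0521), from 1.75 and 4.07 CPM in Control. Such genes pass the filter through the Control libraries and could hardly have moved otherwise, so nothing is drawn from their number, and the same holds in EBs + RA. In Neil1 EBs + RA, where 21.2% of all genes tested rose, 6 of 12 family genes rose, Prl7d1 left out, Prl3d2 by 3.81 (adjusted p = 0.0120) and Prl7a1 by 2.67 (adjusted p = 0.0381). Without clone #11 3 of 12 rose, against 19.7% of all genes: Prl3d1, Prl3d2 by 2.57 (adjusted p = 0.0103) and Prl7a1 by 0.91 (adjusted p = 0.0303). In Neil2 EBs + RA 2 of 11 rose, a share close to the 18.3% of all genes that rose: Prl3d1, and Prl7a1 by 1.02 (adjusted p = 0.0206).

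**Figure D2:**
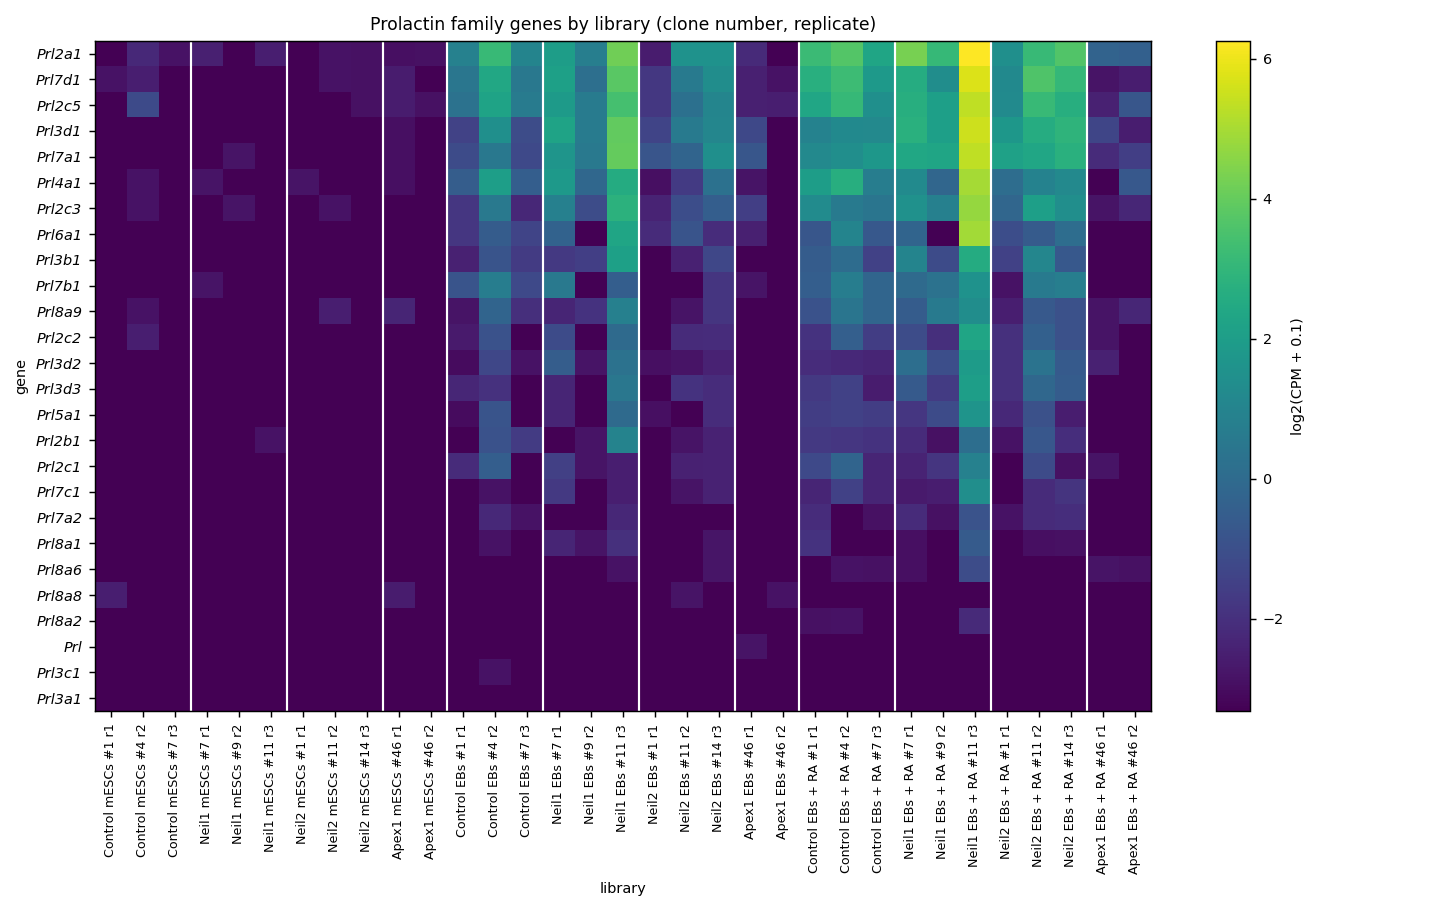
Levels of the prolactin family genes (rows) in the 33 libraries (columns, by group, with clone and replicate), coloured by log2(CPM + 0.1). The columns of Apex1 EBs and EBs + RA stay near the colour of mESCs, with 15 and 14 of 26 genes at 0 reads, and Neil1 clone #11 in EBs + RA is the brightest column.

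Within a genotype, 1 clone was often the highest for most of the family. Control clone #4 was the highest of the 3 Control clones for 18 of 18 family genes with more than 3 reads in EBs and for 14 of 20 in EBs + RA. Neil1 clone #11 was the highest of its group for 16 of 19 genes in EBs and 21 of 21 in EBs + RA.

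The genes most like Prl7d1 over the 33 libraries, by Pearson correlation of log2 CPM among 14194 genes, were Prl2c5 (r = 0.98), Ctsj (0.97), Prl2a1 (0.97), Prl2c3 (0.96) and Prl4a1 (0.96), all on chromosome 13. Ctsj is a cathepsin of the placenta. In the 22 EB libraries, without the mESCs in which all are near 0, r was 0.98 for Prl2c5 and 0.93 for Prl2c3. Prl3d1 was most like Prl7a1 (0.99), and Prl2c2 most like Psg29 (0.94), a pregnancy-specific glycoprotein gene, with Tpbpa, the defining spongiotrophoblast gene, at 0.90. These correlations describe libraries that share clones, stage and preparation.

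**Figure D3:**
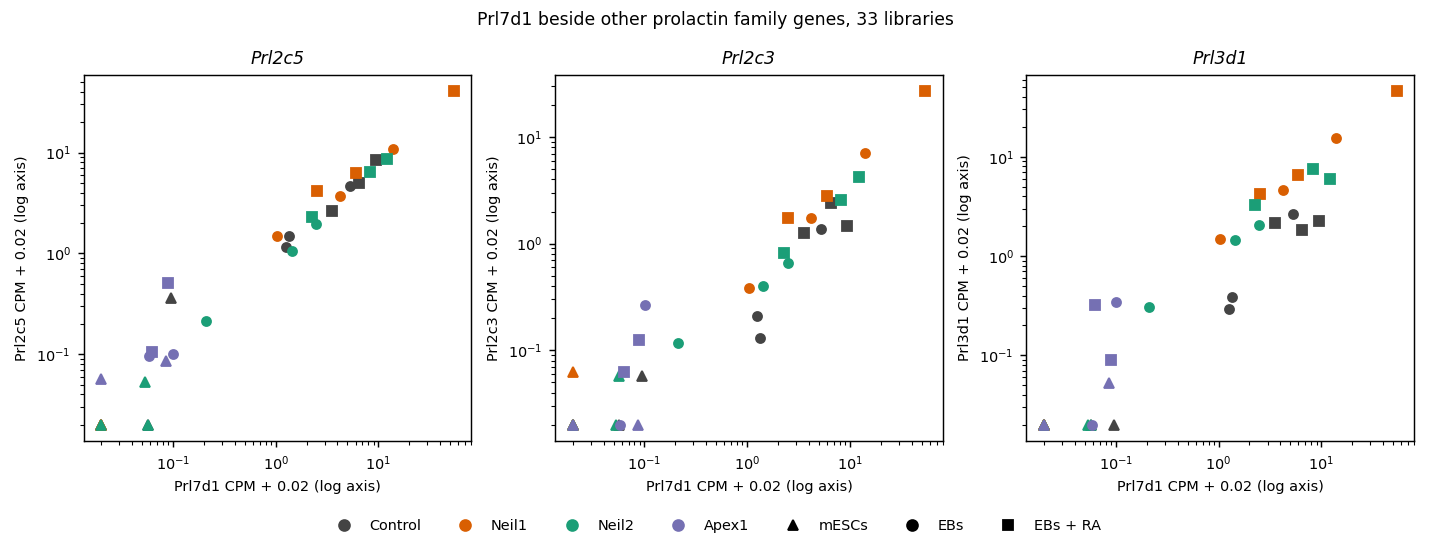
CPM of other prolactin family genes (vertical axes) against CPM of Prl7d1 (horizontal axis), both with 0.02 added and on log axes, in the 33 libraries, coloured by genotype. Libraries lie along 1 diagonal, with mESCs and the Apex1 line at the lower left and Neil1 clone #11 in EBs + RA at 54.3 CPM of Prl7d1 at the upper right.

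Markers of the trophoblast types were partly present. Tpbpa averaged 1.14 CPM in Control EBs and 5.59 in Control EBs + RA, and 0.0381 and 0.258 in the libraries labelled Apex1. In Apex1 EBs Tpbpa fell by 4.68 (adjusted p = 0.0116), one of 4 of 7 tested spongiotrophoblast and glycogen cell genes to fall. Of giant cell genes 2 of 3 tested fell, and of syncytiotrophoblast genes 4 of 10, with none rising in any of these lists. Of all genes tested 13.9% fell and 25.8% passed in either direction. Genes expressed only in Control pass the filter through Control, as with the hormones. Nothing is therefore drawn from the fall of Tpbpa or from the spongiotrophoblast, glycogen cell and giant cell numbers. Of 12 trophoblast stem cell and trophectoderm genes 9 fell there, led by the keratins Krt8, at -3.46 (adjusted p = 6.79e-05), and Krt18, at -3.15 (adjusted p = 0.000729). Keratins also mark other epithelia, and in the same libraries 5 of 6 visceral endoderm and 6 of 6 parietal endoderm genes fell, with summed levels of 71.4 to 95.4 against 256 to 716 CPM and of 570 to 588 against 1459 to 1738 CPM in Control. The part of these cell types in the trophoblast values was not tested. Lower sums were not particular to Apex1. The trophoblast stem cell and trophectoderm sum was 1415 to 2074 CPM in Control EBs and 290 to 324 in Apex1. It was 728 to 967 CPM in Neil1 EBs and 527 to 838 in Neil2 EBs. The spongiotrophoblast and glycogen cell sum was 194 to 246 CPM in Control, 120 to 148 in Neil1 and 107 to 158 in Neil2. The giant cell sums of Neil1 and Neil2 EBs overlapped Control.

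Hand1 (ENSMUSG00000037335, chromosome 11, 57642207 to 57646320, minus strand), which acts in the formation of giant cells, moved strongly between the stages in Control. It was 1.93 to 2.53 CPM in Control mESCs and 90, 110 and 89.8 CPM in Control EBs, a rise of 5.40 (SE 0.162, adjusted p = 4.49e-07). RA brought it down to 6.61, 5.16 and 7.55 CPM in the same clones, and it fell by 3.91 (SE 0.167, adjusted p = 1.12e-06). Prl7d1 did not share this course, with Control means of 2.61 CPM in EBs and 6.47 CPM in EBs + RA.

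In EBs every mutant line lacked this peak. Neil1 clones held 6.56, 6.51 and 12.6 CPM, Neil2 clones 7.91, 5.82 and 10.9 CPM, and the libraries labelled Apex1 10.9 and 10.3 CPM. Hand1 fell in all 3, with log2 fold changes of -3.49 (SE 0.255, adjusted p = 4.74e-05) in Neil1, -3.54 (SE 0.224, adjusted p = 9.50e-05) in Neil2 and -3.20 (SE 0.131, adjusted p = 5.86e-07) in Apex1, with no overlap with Control, and each call held in every alternative tried. The 3 comparisons share the same Control libraries.

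With RA the direction turned. Neil1 clones held 11.8, 8.11 and 91.1 CPM and Neil2 clones 8.97, 10 and 15.6 CPM, all above the highest Control clone at 7.55 CPM, and Apex1 held 8.22 and 9.64 CPM. Hand1 rose by 2.52 (adjusted p = 0.0506) in Neil1 and by 0.86 (adjusted p = 0.0359) in Neil2. Without Neil1 clone #11 the Neil1 rise was 0.63 (adjusted p = 0.0859), and the call with all clones was lost without Control clone #1 or #4 or without a filter on low counts; in Neil2 it was lost without Control clone #1 or #4, without Neil2 clone #14 or in 1 fit of all libraries. The difference between the stages was itself tested: it was 6.04 (SE 1.06, adjusted p = 0.00260) for Neil1, or 4.14 (adjusted p = 2.58e-05) without clone #11 in EBs + RA, and 4.38 (adjusted p = 1.78e-05) for Neil2.

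Ascl2 (ENSMUSG00000009248, chromosome 7, 150152727 to 150155169, minus strand) was expressed before differentiation, at 14.4, 13.5 and 7.98 CPM in Control mESCs. It fell by 1.52 (adjusted p = 0.00264) in Control EBs, to 3.93, 5.45 and 3.28 CPM, and stayed at 3.3, 2.37 and 3.38 CPM with RA. In EBs no mutant differed from Control past the limits, and the log2 fold changes ran from 0.07 to 0.32. In EBs + RA it rose by 2.08 (SE 0.425, adjusted p = 0.00749) in Neil1, at 7.96, 8.33 and 22.1 CPM, and by 1.11 (adjusted p = 0.0163) in Neil2, at 5.48, 5.39 and 8.41 CPM. Both groups lay above Control without overlap, the calls held without any 1 library, and without Neil1 clone #11 the rise was 1.43 (adjusted p = 0.00357).

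Gcm1 (ENSMUSG00000023333, chromosome 9, 77899765 to 77913431, plus strand), the factor of syncytiotrophoblast fusion, rose by 1.54 (adjusted p = 0.00287) from Control mESCs to Control EBs, where it held 2.06, 2.26 and 2.17 CPM. No mutant differed from Control past the limits in either EB stage by edgeR with all clones. In EBs + RA Neil1 held 6.57, 3.36 and 2.02 CPM and Neil2 1.5, 6.41 and 4.97 CPM, against 2.18, 1.47 and 2.78 CPM in Control, so that each group overlapped Control. The log2 fold changes were 0.90 (adjusted p = 0.148) and 1.02 (adjusted p = 0.149). The Neil2 value was called by DESeq2 (adjusted p = 0.0974), in 1 edgeR fit of all 33 libraries (adjusted p = 0.0756) and without Neil2 clone #1 (1.42, adjusted p = 0.0121), and the Neil1 value in the fit of all libraries (adjusted p = 0.0966). Neil2 EBs, at 0.47 with all clones, passed without clone #1 (0.76, adjusted p = 0.0428). Without Neil1 clone #11, the clone with the highest hormones but the lowest Gcm1 of its group, the Neil1 value became 1.21 (adjusted p = 0.0370).

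Cdx2 (ENSMUSG00000029646, chromosome 5, 148112381 to 148118846, minus strand) ran nearly parallel to Hand1. It rose by 6.42 (adjusted p = 2.05e-06) from Control mESCs, at 0.492 to 1.06 CPM, to Control EBs, at 82.6, 76.6 and 48.9 CPM, and fell by 4.78 (adjusted p = 1.43e-05) with RA, to 3.73, 2.15 and 1.76 CPM. In EBs Neil1 held 1.7, 1.26 and 1.64 CPM, Neil2 1.21, 2.05 and 1.67 CPM and Apex1 9.12 and 11.2 CPM. Cdx2 fell in all 3, with log2 fold changes of -5.50 (SE 0.243, adjusted p = 1.28e-06), -5.40 (SE 0.284, adjusted p = 3.75e-05) and -2.77 (SE 0.262, adjusted p = 0.000533), and each call held in every alternative tried.

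With RA Cdx2 was 3.81, 3.68 and 7.8 CPM in Neil1, 2.14, 6.63 and 6.01 CPM in Neil2 and 8.86 and 5.77 CPM in Apex1, and Neil1 and Neil2 overlapped Control. The Neil1 rise of 1.00 (adjusted p = 0.0860) was lost with a replicate block (0.98, adjusted p = 0.128), without Control clone #4 or #7, and without Neil1 clone #11 (0.56, adjusted p = 0.240). The Neil2 difference of 0.97 (adjusted p = 0.136) did not pass the limits by edgeR, but was called by DESeq2 (adjusted p = 0.0864), in 1 edgeR fit of all 33 libraries (adjusted p = 0.0609) and without Neil2 clone #1 (1.32, adjusted p = 0.0202). The change of the difference between stages was 6.51 (adjusted p = 1.13e-05) for Neil1 and 6.35 (adjusted p = 3.23e-05) for Neil2, and it held without clone #11 (6.07, adjusted p = 3.30e-06).

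Elf5 (ENSMUSG00000027186, chromosome 2, 103251845 to 103291146, plus strand), a gatekeeper of the trophoblast stem cell fate, was the factor with the highest correlation with Prl7d1 over all 33 libraries. It rose by 2.12 (adjusted p = 0.00488) from Control mESCs to EBs, at 0.925, 0.779 and 0.995 CPM, and by a further 2.30 (adjusted p = 0.000576) with RA, to 3.9, 3.05 and 6.46 CPM. With RA it was 12.8, 7.11 and 28.5 CPM in Neil1, 7.46, 6.41 and 12.6 CPM in Neil2, and 1.28 and 1.83 CPM in the libraries labelled Apex1. Neil1 lay above Control and Apex1 below it, and Neil2 overlapped Control at 1 clone.

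Elf5 rose in EBs + RA by 1.85 (SE 0.509, adjusted p = 0.0244) in Neil1, or by 1.16 (adjusted p = 0.0393) without clone #11, and by 1.00 (adjusted p = 0.0612) in Neil2, and the Apex1 difference was -1.48. The Neil2 call was lost without Control clone #1 or #4 or without Neil2 clone #14. In EBs it rose by 0.85 (adjusted p = 0.0426) in Neil1, a call lost when Control clone #1 or #4 or Neil1 clone #9 was left out and in 1 fit of all libraries. Neil2 and Apex1 EBs gave 0.71 (adjusted p = 0.211) and -0.62 (adjusted p = 0.241). Over the 33 libraries r with Prl7d1 was 0.85 for Elf5, against 0.61 for Hand1, 0.56 for Gcm1, 0.42 for Cdx2, 0.36 for Tcfap2c and -0.24 for Ascl2, in libraries that share clones and stages. These include the mESCs, in which Prl7d1 and Elf5 were both low, and the order of the factors was not repeated without them.

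Tcfap2c (ENSMUSG00000028640, chromosome 2, 172375093 to 172384122, plus strand) was abundant at every stage, 65.4 to 77.5 CPM in Control mESCs, 68.9, 81.9 and 83.1 CPM in Control EBs and 34.7, 35.5 and 53.1 CPM with RA, where it fell by 0.93 (adjusted p = 0.00241). It rose in EBs by 0.56 (adjusted p = 0.00259) in Neil1, by 0.57 (adjusted p = 0.0494) in Neil2, and reached 0.45 (adjusted p = 0.00727), under the fold limit, in Apex1. With a replicate block the Apex1 value was 0.51 and passed, although the numbers name different clones. The Neil1 call was lost without Control clone #1 and the Neil2 call without any 1 Control clone or without Neil2 clone #14.

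In EBs + RA Tcfap2c was 105, 68.1 and 177 CPM in Neil1 and 64.5, 88.2 and 111 CPM in Neil2, all above Control, with rises of 1.51 (adjusted p = 0.0110) and 1.11 (adjusted p = 0.00829). Both held without any 1 library, and without Neil1 clone #11 the rise was 1.08 (adjusted p = 0.00996). The libraries labelled Apex1 held 60.1 and 69.5 CPM, a difference of 0.69.

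**Figure D4:**
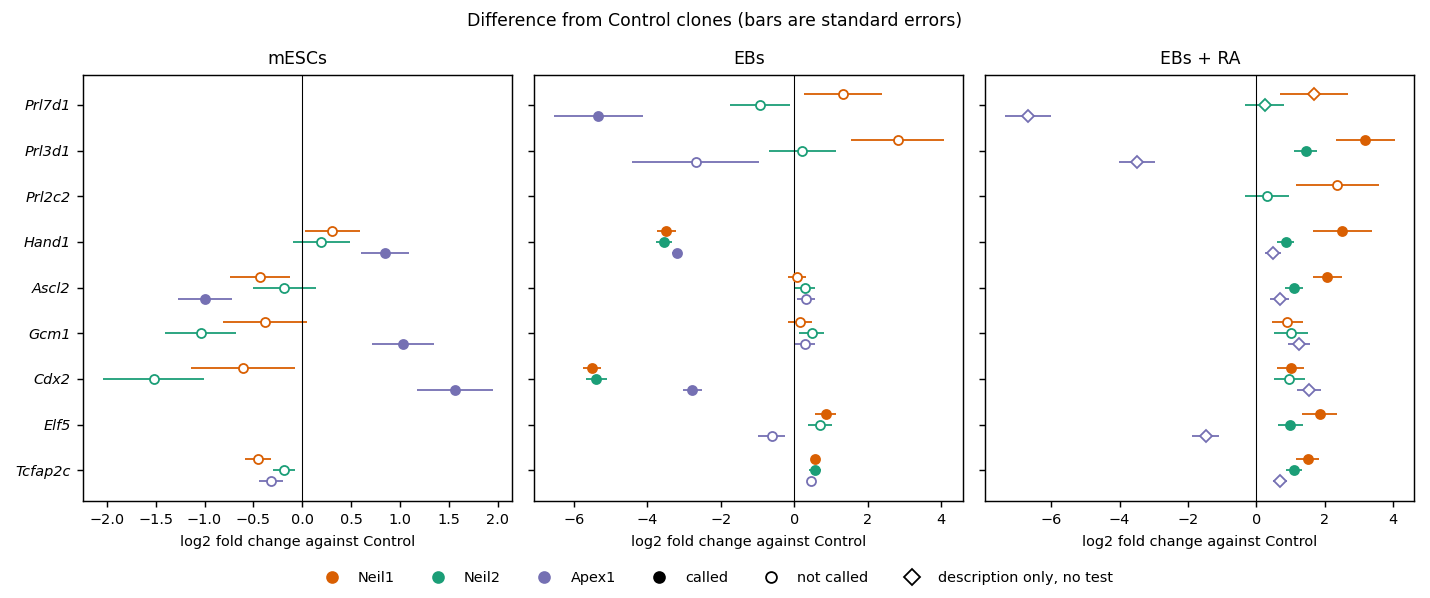
Log2 fold change of each gene against the Control clones of its stage (horizontal axis) in mESCs, EBs and EBs + RA, by genotype; bars are standard errors of the fit. Hand1 and Cdx2 lie far below 0 in EBs in all 3 mutants, from -5.50 to -2.77, and the hormone genes lie below 0 in the Apex1 line and above 0 in Neil1 EBs + RA, where Prl7d1 and Prl2c2 turn to -0.60 and -0.36 without clone #11.

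Counted together, 8 of the 9 genes had enough reads to test in EBs, where Hand1 and Cdx2 fell in each mutant. In Neil1 EBs 2 rose and 2 fell (23.5% of all genes tested passed the limits), and in Neil2 EBs 1 rose and 2 fell (16.3%). In Apex1 EBs none rose and 3 fell (25.8%). Prl7d1 was among these, but it passed the filter through Control and nothing is drawn from its call. In EBs + RA 6 of the 8 genes open to a test rose in Neil1 and none fell, where 21.2% of all genes tested rose and 41.1% passed in either direction. Without clone #11 6 rose as well, Gcm1 among them and Cdx2 no longer, where 19.7% of all genes rose. In Neil2 5 of 8 rose and none fell, where 18.3% rose and 34.9% passed. In Apex1 EBs + RA, where 24.8% of all genes tested passed, Prl7d1, Prl3d1 and Elf5 were lower and the other 5 with enough reads were higher, in the comparison that chose Prl7d1.

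In Control, 5 of 7 genes tested rose and 1 fell from mESCs to EBs (38.7% of all genes passed). Of those that rose, Prl7d1 and Elf5 passed the filter on low counts through the EBs. With RA 1 of 7 rose and 3 fell (44.1%). In mESCs 5 of the 9 genes could be tested. None was called in Neil1 (1.82% of all genes) or Neil2 (1.83%) by edgeR, with 1 and 2 genes at an unadjusted p below 0.05, nor by DESeq2. In Apex1 mESCs 3 rose and 1 fell (16.9%): Hand1 by 0.84 (adjusted p = 0.0713), Gcm1 by 1.03 (adjusted p = 0.0819) and Cdx2 by 1.56 (adjusted p = 0.0509) rose, and Ascl2 fell by 0.99 (adjusted p = 0.0665). None of these 4 calls was left when the technical duplicates were summed into 1 library.

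None of the genes was called between the Neil1 and Neil2 clones by edgeR, in EBs (0% of all genes passed) or in EBs + RA (0%). At an unadjusted p below 0.05 were 2 and 1 genes. The largest log2 fold changes, Neil1 over Neil2, were 2.57 for Prl3d1 in EBs and 2.11 for Prl2c2 in EBs + RA, so a difference is not excluded. DESeq2 called none of them, but gave no adjusted p for Hand1 in EBs + RA. The interaction of mutation and RA, the change of a mutant's difference from Control between EBs and EBs + RA, passed for 4 of 8 genes in Neil1 (Hand1, Ascl2, Cdx2 and Tcfap2c, background 29.6%) and 2 of 8 in Neil2 (Hand1 and Cdx2, background 15%), all upward. For Ascl2 it was 2.03 (adjusted p = 0.0150) in Neil1, or 1.38 (adjusted p = 0.0143) without clone #11 in EBs + RA. For Tcfap2c it was 0.97 (adjusted p = 0.0916) in Neil1, kept in 4 of 12 fits that left out 1 library and lost at 0.54 without clone #11 in EBs + RA, and 0.52 (adjusted p = 0.313) in Neil2.

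Levels can be ranked between genes only per length. In RPKM, read counts scaled to exon length and library size, Control EBs ran from Hand1 at 48.4, above Cdx2 at 30.7 and Tcfap2c at 21.2, whose clones overlapped, to Ascl2 at 2.62, Prl7d1 at 2.36, Prl3d1 at 1.29 and Gcm1 at 1.06, which overlapped in turn, and to Prl2c2 at 0.193 and Elf5 at 0.153. In Control EBs + RA the order was Tcfap2c at 11.2, then Prl7d1 at 5.84, Hand1 at 3.23 and Prl3d1 at 2.43, each overlapping the next, and Ascl2 at 1.87. In Neil1 EBs + RA Prl3d1 at 22.2, Prl7d1 at 18.9 and Hand1 at 18.5 came close to Tcfap2c at 31.7, means set largely by clone #11. In Apex1 EBs + RA Prl7d1 was at 0.0505 and Prl2c2 at 0.0252, the last of the 9.

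Mesoderm genes were lower in the same mutant EBs as Hand1 and Cdx2. All 6 primitive streak and posterior mesoderm genes listed fell in Neil1 EBs, where 13.1% of all genes tested fell, and 4 of 6 fell in Neil2 EBs (7.69% of all genes) and in Apex1 EBs (13.9%). Their median log2 fold changes were -4.26, -5.06 and -1.72. Mixl1, a streak gene, fell in all 3, with log2 fold changes of -5.05 (adjusted p = 0.000139), -5.36 (adjusted p = 3.52e-05) and -1.97 (adjusted p = 0.00568). Of 6 lateral and extraembryonic mesoderm genes 5 fell in each mutant and 1 rose in Neil1. The falls included Hand2, at -5.76 (adjusted p = 0.00376) in Neil1 and -6.43 (adjusted p = 0.00142) in Neil2. Genes high mainly in Control EBs can pass the filter on low counts through Control, as with the hormones. Which of these genes did so was not examined. Nothing is therefore drawn from how many fell, or from the calls of Mixl1 and Hand2.

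The summed streak level was 166 to 263 CPM in Control EBs, 8.2 to 12 in Neil1, 7.4 to 9.05 in Neil2 and 55.3 to 73 in Apex1, and with RA it was 3.74 to 6.54 in Control. It was thus high in the same libraries as Hand1 and Cdx2, and low in Control EBs + RA. The summed lateral and extraembryonic mesoderm level did not share that course: it was 71.4 to 108 CPM in Control EBs and higher, at 131 to 159 CPM, in Control EBs + RA, where Hand1 was down to 5.16 to 7.55 CPM. Hindgut and caudal genes fell for 3 of 4 tested in each mutant EB comparison, with the same limit on the filter. Of all genes tested 13.1%, 7.69% and 13.9% fell in Neil1, Neil2 and Apex1 EBs. Of 5 pluripotent cell genes 5, 4 and 3 rose in Neil1, Neil2 and Apex1 EBs. There 23.5%, 16.3% and 25.8% of all genes tested passed the limits in either direction. What share of the Hand1 and Cdx2 RNA came from trophoblast or from mesoderm was not tested.

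**Figure D5:**
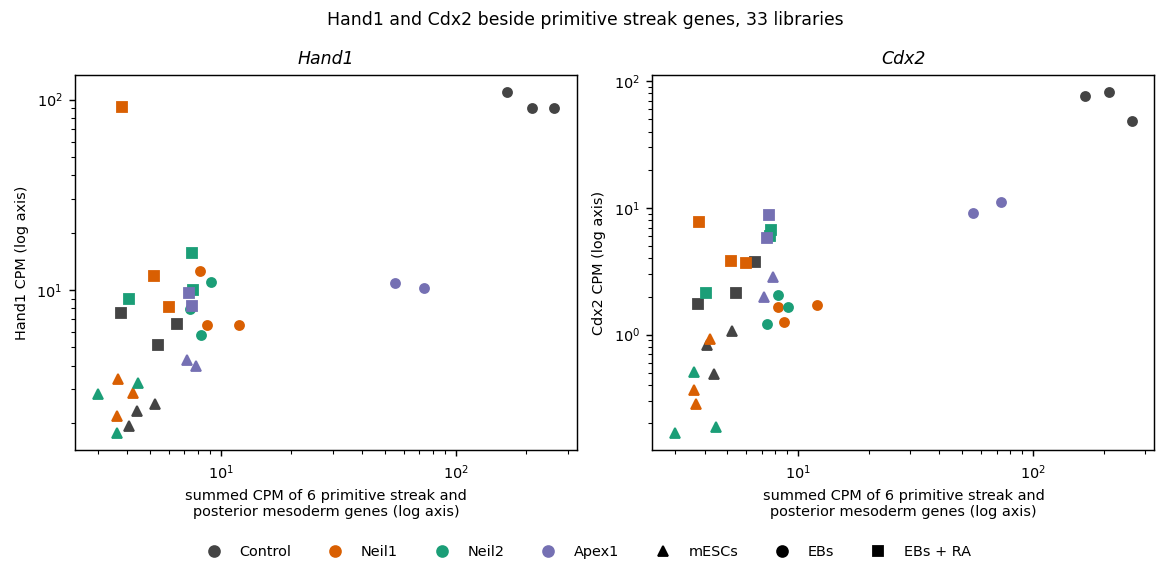
CPM of Hand1 and of Cdx2 (vertical axes, log) against the summed CPM of 6 primitive streak and posterior mesoderm genes (horizontal axes, log) in the 33 libraries, coloured by genotype. The 3 Control EB libraries stand alone at the upper right, at 166 to 263 summed CPM, and Neil1 clone #11 in EBs + RA has 91.1 CPM of Hand1 at a low streak level.

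In EBs + RA trophoblast genes were called higher in part, by list and genotype, beside genes of other cell types. In Neil1, where 21.2% of all genes tested rose, 9 of 12 trophoblast stem cell and trophectoderm genes rose and 1 fell, 4 of 9 spongiotrophoblast, 6 of 7 giant cell and 5 of 10 syncytiotrophoblast genes rose, and 1 of the latter fell. Without clone #11, where 19.7% of all genes rose, the rises were 9 of 12, 2 of 9, 3 of 7 and 6 of 10, with 1 fall in each list but the giant cell genes. In Neil2, where 18.3% of all genes rose, 7 of 12 trophoblast stem cell and trophectoderm genes and 5 of 10 syncytiotrophoblast genes rose, with 1 fall in each. Of the Neil2 spongiotrophoblast genes 2 of 9 rose, a share close to that of all genes, with a median log2 fold change of 0.07, and none of 6 giant cell genes was called by edgeR or had an unadjusted p below 0.05, while DESeq2 called 1 of 8, Prl3d2. Krt8 rose by 1.42 (adjusted p = 0.0139) in Neil1, and Eomes, a trophoblast stem cell and streak factor, by 1.85 (adjusted p = 0.00536) in Neil2.

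Other cell types moved in the same libraries. Of 6 parietal endoderm genes 4 rose in Neil1 and 1 fell in Neil2, of 6 visceral endoderm genes 3 and 1 rose, of 5 surface ectoderm genes 3 and 1 rose, and of 5 primordial germ cell genes 3 and 4 rose. Without clone #11 the Neil1 rises in these lists were 2 (with 1 fall), 4, 2 and 3. Of 5 pluripotent cell genes 4 rose in each, with 1 falling in Neil1, and their summed level was 133 to 166 CPM in Control, 254 to 317 in Neil1 and 172 to 474 in Neil2. Pou5f1, the pluripotency factor, rose by 1.85 (adjusted p = 0.00572) in Neil1 and by 2.42 (adjusted p = 0.00319) in Neil2. Lateral and extraembryonic mesoderm went the other way, with 5 and 4 of 6 genes falling and 1 rising in each. There 41.1% and 34.9% of all genes tested passed in either direction. In Neil1 without clone #11, where 19.0% of all genes fell, 4 of the 6 fell and none rose. Wt1 was at -3.63 (adjusted p = 0.000216) in Neil1 with all clones. The part of these cell types in the rise of Tcfap2c and Ascl2, which pluripotent or germ cells can also express, was not tested. Nor was it tested for Elf5, which was at 0.0737 to 0.379 CPM in the mESC libraries of all genotypes.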

How the data were processed

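Total RNA of 33 libraries was sequenced for 51 cycles. The authors aligned reads with TopHat2 2.0.9 (Bowtie2 2.1.0) to NCBIM37 and counted uniquely aligned reads per gene with HTSeq 0.5.4; the deposited files hold these raw counts, with no normalization. Counts were compared in R 4.3.3 with edgeR 4.0.16 (filterByExpr, TMM, robust quasi-likelihood test, Benjamini-Hochberg adjustment over all genes tested), with only the compared groups in the fit. A gene was called, and said to rise or fall, at an adjusted p below 0.1 with an absolute log2 fold change above 0.5. CPM values are TMM-normalized, log2 CPM used a prior count of 2, and DESeq2 1.42.0 was an alternative. The fits were tested on simulated data.

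The genes, the 13 marker and family lists, and the rule for naming called list genes (at most the 3 with the largest fold change per comparison) were chosen with earlier results of these data known. Libraries of different genotypes with the same replicate number are different clones; Control clones recur across stages. The correlation of their deviations from the group means was -0.136 to 0.357 for the same clone (6 pairs, mean 0.155) and -0.076 on average for different clones (12 pairs). No 2 libraries of a group agreed within counting noise. Leaving out each library, RLE factors, no filter, all 33 libraries in 1 fit, replicate blocks and summed Apex1 duplicates were tried. p-values cover the spread between clones. Those against Apex1 mix the spread between Control clones with that between technical duplicates, and cover none between Apex1 clones. Gene names and coordinates are from the NCBIM37 annotation (37205 of 37991 identifiers).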

Additional observations from a re-analysis of the deposited data

Results flagged for a closer look

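The difference from Control changed between EBs and EBs + RA, by the tested interaction, for Hand1 (6.04), Ascl2 (2.03), Cdx2 (6.51) and Tcfap2c (0.97) in Neil1 and for Hand1 (4.38) and Cdx2 (6.35) in Neil2, on the log2 scale. The Control EBs are the libraries in which Hand1 and Cdx2 are high, so both interactions rest on the same 3 clones.

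Hand1, Cdx2, Ascl2 and Tcfap2c also lay on opposite sides of Control at different stages within 1 genotype, with no overlap between libraries at those stages, and these differences between stages were not tested. Not all of the values passed the limits against Control: Tcfap2c did not in Apex1 mESCs, Apex1 EBs or Neil1 mESCs, and those of Apex1 EBs + RA have no test. In the libraries labelled Apex1, Hand1 was 0.84 against Control in mESCs, -3.20 in EBs and 0.50 in EBs + RA, and Cdx2 was 1.56, -2.77 and 1.55. Ascl2 was -0.99 in Apex1 mESCs and 0.68 in Apex1 EBs + RA, and Tcfap2c was -0.32, 0.45 and 0.69 at the 3 stages. In Neil1, Tcfap2c was -0.45 in mESCs, 0.56 in EBs and 1.51 in EBs + RA.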

How the results depend on the processing

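Of 1229 recomputed fold changes of the 9 genes, 1142 kept direction and side of the limits, 62 lost and 25 gained a call, and none that was called changed sign. Leaving out 1 library made 45 of the losses and 13 of the gains. Of 41 called values, 26 were called under every alternative, Hand1 and Cdx2 in EBs among them. The 4 calls in Apex1 mESCs were the least stable: 1 remained with all 33 libraries in 1 fit, 0 with the Apex1 duplicates summed, and 0 to 4 when 1 library was left out. Leaving out 1 library gave 2 to 4 calls in Neil1 EBs and 3 to 7 in Neil2 EBs + RA. A replicate block changed 5 of 118 values, each named above or the Neil2 interaction of Tcfap2c, which passed at 0.53 with the clone as a block, an alternative chosen after seeing the data, and at 0.54 with the replicate number. The causes were not tested.

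Counts over all genes moved more: 283 genes called in Neil1 mESCs became 0 to 2011, 286 in Neil2 mESCs 1 to 1494, 2751 in Apex1 mESCs 0 to 6154, and 4026 in Apex1 EBs + RA 1027 to 5631. Between Neil1 and Neil2 in EBs + RA edgeR called 0 genes with only the compared groups in the fit, and 546 in 1 fit of all 33 libraries. DESeq2 called 111. Hormone genes with under 10 reads a group give wide intervals at this depth.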
